A study of Mus musculus with 12 samples.

Results

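Zbtb16, also called PLZF, was represented by 3 of the 45101 probe sets on the array, the 3 that the platform annotation assigns to this symbol, and it is 1 of the 18194 genes named there. Primary chondrocytes, the cells that build cartilage, came from the tibiae, femurs and humeri of embryonic day 15.5 CD1 mice and grew as a monolayer on plastic. No transgene or mutant allele is named for them in the sources used here, and they were plated in medium with fetal bovine serum. All of them then received fresh medium with ascorbic acid and beta-glycerophosphate, to which either 100 nM dexamethasone (DEX, a synthetic glucocorticoid) or an equal volume of its solvent DMSO (vehicle) was added for 6 or 24 hrs. Each of the 4 groups had 3 arrays, numbered 1, 2 and 4, from independent cell isolations, and whether embryos were pooled for an isolation is not given in the sources used here. The gene was chosen from these same DEX against vehicle values, so they are given below as a description without a test.

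Zbtb16 encodes a transcription factor with a BTB/POZ domain, through which it pairs with itself and with partners, and a row of zinc fingers that bind DNA. It mostly represses, by bringing in corepressor complexes with Sin3 and histone deacetylases, and it also works with the ubiquitin ligase subunit Cul3. In the mouse it shapes the limb skeleton, where its loss in the luxoid mutant disturbs limb pattern and Hox gene expression, and it is needed in spermatogonial stem cells and natural killer T cells. It is also a known target of the glucocorticoid receptor in several cell types.

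Values are GC-RMA intensities, a measure of how brightly a set of short probes for one transcript lit up, corrected for background. Probes differ in how well they bind, so an intensity of one probe set says nothing about the amount seen by another, and the probe sets are compared below by their differences between groups. An intensity of 50 served as the limit under which a probe set was taken to be near background. RNA came from whole cultures, in which fewer cells expressing a gene and less RNA per cell cannot be told apart.

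The array files give 4 hybridization days, numbered here in order. Days 1 and 2 held the 24 hr arrays and days 3 and 4 the 6 hr arrays, each day with DEX and vehicle arrays of the same replicate numbers. Median intensity ran from 25.7 to 39.1 over the 12 arrays. The 4 arrays of day 3 (replicates 1 and 2 at 6 hrs) stood apart in the control probe sets for the 3′ and 5′ ends of the Gapdh transcript, with a 3′ minus 5′ difference of 0.49 to 0.74 on the log2 scale against −0.33 to −0.22 on the other 8 arrays.

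The brightest probe set, 1439163_at, was near background without DEX and well above it with DEX at both times. With vehicle for 6 hrs its intensity was 24.3, 31.7 and 32.2 on the arrays of replicates 1, 2 and 4 (29.4 ± 4.41, SD, n = 3). With DEX for 6 hrs it was 354, 235 and 541 (377 ± 154, SD, n = 3). The lowest DEX array therefore lay far above the highest vehicle array, and the DEX arrays were also the more spread out. At 24 hrs it was 29.1, 36.2 and 44.2 with vehicle (36.5 ± 7.57, SD, n = 3). With DEX for 24 hrs it was 271, 246 and 325 (281 ± 40.4, SD, n = 3). The groups did not overlap at either time, and all 6 vehicle arrays were below 50. From low to high the order of the group means was vehicle 6 hrs, vehicle 24 hrs, DEX 24 hrs and DEX 6 hrs, in which the 2 vehicle groups overlapped with each other and so did the 2 DEX groups.

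The difference between DEX and vehicle arrays of the same replicate number, on the log2 scale, was 3.87, 2.89 and 4.07 at 6 hrs for 1439163_at, a mean of 3.61 ± 0.63 (SD, n = 3 pairs) or 12.2-fold. At 24 hrs the pairs gave 3.22, 2.77 and 2.88, a mean of 2.95 ± 0.23 (SD, n = 3 pairs) or 7.75-fold. Among the 20897 probe sets that reached a group mean of 50 in 1 group or more, these differences ranked 6 and 15 from the top. Because the vehicle intensities were below 50, setting them to 50 gives a lower bound on the mean fold change. By it 1439163_at was on average at least 7.12-fold higher with DEX at 6 hrs and at least 5.58-fold higher at 24 hrs. The single pairs gave 7.08-fold, 4.71-fold and 10.8-fold at 6 hrs, and 5.41-fold, 4.93-fold and 6.51-fold at 24 hrs. Changes of 10-fold or more upward were rare on this array, with 9 probe sets at 6 hrs (0.0431%) and 11 at 24 hrs (0.0526%).

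The second probe set, 1419874_x_at, carries the suffix that Affymetrix gives to sets with probes that may also match other transcripts. With vehicle for 6 hrs it was at 3.11, 6.42 and 15.4 (8.30 ± 6.35, SD, n = 3), and with DEX for 6 hrs at 64.3, 65.1 and 293 (141 ± 132, SD, n = 3). Replicate 4 was the brightest array in both groups, and the DEX group still did not overlap with the vehicle group. At 24 hrs it was at 1.13, 1.43 and 2.00 with vehicle (1.52 ± 0.445, SD, n = 3) and at 128, 127 and 150 with DEX (135 ± 12.7, SD, n = 3). This was the widest gap between groups of any of the 20897 probe sets at 24 hrs, with pair differences of 6.83, 6.48 and 6.22 on the log2 scale (6.51 ± 0.30, SD, n = 3 pairs).

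The 91.0-fold value that this difference gives for 1419874_x_at rests on vehicle intensities close to 1. With the vehicle group set at 50 the probe set was on average at least 2.69-fold higher with DEX at 24 hrs. The 24 hr pairs gave 2.56-fold, 2.55-fold and 2.99-fold by this measure. At 6 hrs the pair differences on the log2 scale were 4.37, 3.34 and 4.25 (3.99 ± 0.56, SD, n = 3 pairs, 15.9-fold). With vehicle set at 50 the 6 hr pairs gave 1.29-fold, 1.30-fold and 5.87-fold, so the 6 hr group value of 2.14-fold rests on replicate 4. On the linear scale the DEX minus vehicle intensity was 61.2, 58.7 and 278 in the 6 hr pairs and 127, 126 and 148 in the 24 hr pairs. The 6 hr differences of replicates 1 and 2 were thus lower than those of each 24 hr pair, and that of replicate 4 was higher.

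The third probe set, 1427638_at, did not show the difference. With vehicle for 6 hrs it was at 37.8, 46.5 and 49.6 (44.6 ± 6.15, SD, n = 3), and with DEX at 39.1, 43.2 and 71.2 (51.2 ± 17.5, SD, n = 3). With vehicle for 24 hrs it was at 52.1, 72.9 and 53.0 (59.3 ± 11.8, SD, n = 3), and with DEX at 53.8, 59.6 and 72.1 (61.8 ± 9.35, SD, n = 3). The groups overlapped at both times. The pair differences on the log2 scale were 0.05, −0.11 and 0.52 at 6 hrs (0.15 ± 0.33, SD, n = 3 pairs) and 0.05, −0.29 and 0.44 at 24 hrs (0.066 ± 0.37, SD, n = 3 pairs), smaller than the spread between pairs.

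Thus 2 of the 3 Zbtb16 probe sets had all DEX arrays of both times above all vehicle arrays of both times. Of the 20897 probe sets 116 showed this pattern (0.555%). This contrast chose the gene, so nothing is read from the count. The deposited data do not say which part of the transcript each probe set covers.

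**Figure D1:**
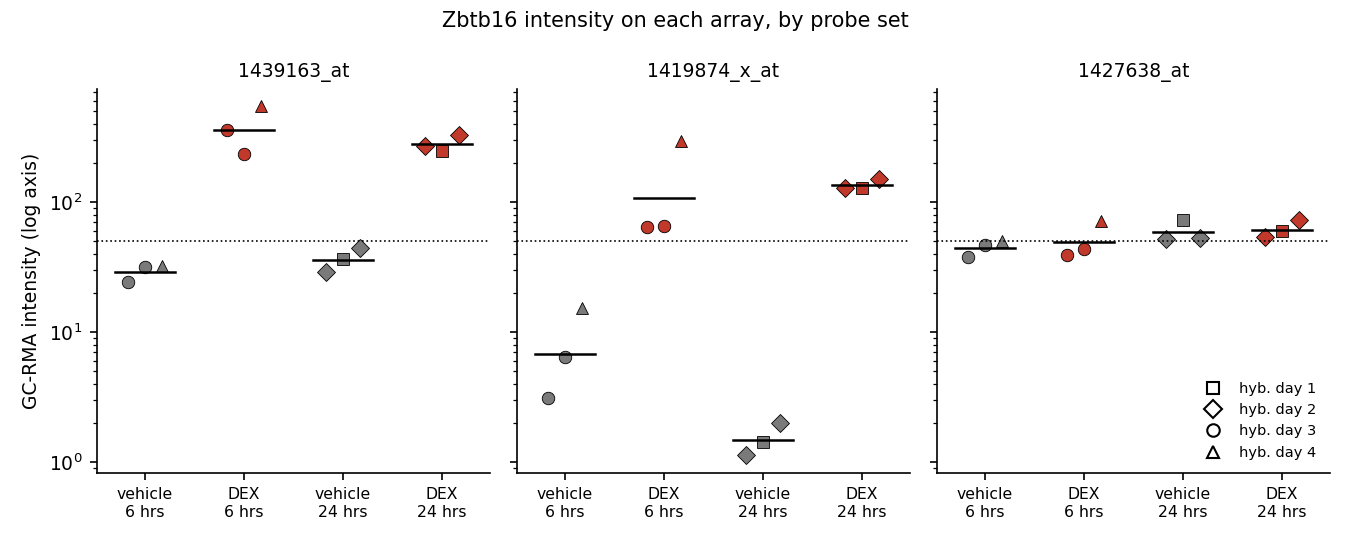
GC-RMA intensity (log axis) of the 3 Zbtb16 probe sets on each of the 12 arrays, by group; points are arrays, in the order of replicates 1, 2 and 4, their shape gives the hybridization day, bars are geometric means, and the dotted line marks 50. DEX arrays of 1439163_at lie between 235 and 541 and all its vehicle arrays are below 50, whereas the groups of 1427638_at overlap.

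**Figure D2:**
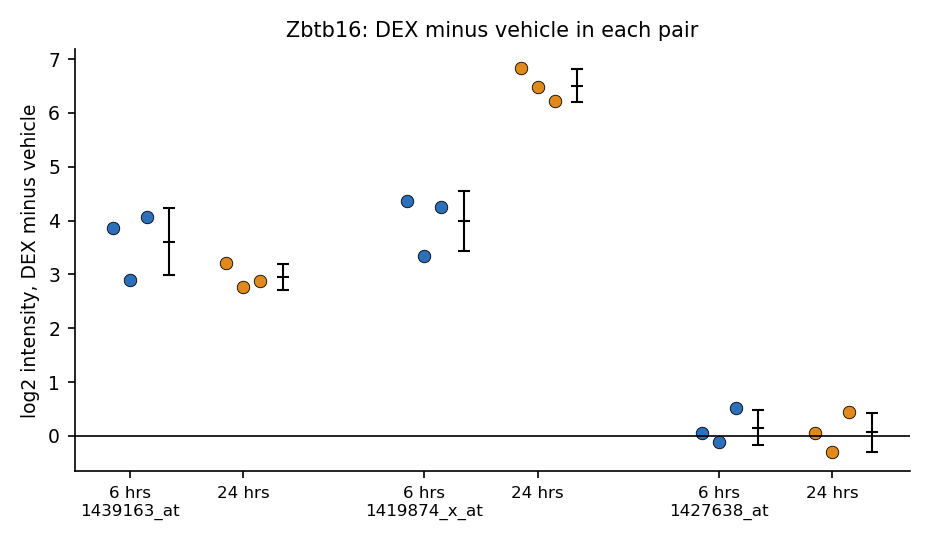
DEX minus vehicle on the log2 scale for each pair of arrays with the same replicate number and time; bars give the mean and SD of 3 pairs. 1439163_at averages 3.61 at 6 hrs and 2.95 at 24 hrs, 1419874_x_at 3.99 and 6.51, and 1427638_at 0.15 and 0.066.

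Whether the DEX effect on Zbtb16 differed between 6 and 24 hrs was tested with limma over all 12 arrays. P-values were adjusted by Benjamini-Hochberg over the 20897 probe sets, and the test is built from the same DEX and vehicle values that chose the gene. For 1439163_at the later effect minus the earlier one was −0.66 on the log2 scale (SE 0.40, adjusted p = 1.00), and for 1427638_at it was −0.09 (SE 0.35, adjusted p = 1.00). For 1419874_x_at it was 2.52 (SE 0.89, unadjusted p = 0.0167, adjusted p = 1.00), a value that takes in vehicle intensities of 1.13 to 15.4, far below 50, so that no direction is read from it. Of the 20897 probe sets none passed the threshold of an adjusted p of 0.05 in this comparison (0%), while 758 had an unadjusted p under 0.05. When the pairs entered the fit as blocks, the adjusted p of 1419874_x_at was 0.153, and with a pseudocount of 16 its difference shrank to 0.69. Without the arrays of day 3 the differences were −1.12 for 1439163_at (adjusted p = 0.330) and 2.25 for 1419874_x_at (adjusted p = 0.152). A difference between the times was thus not shown for Zbtb16, and neither was its absence. All vehicle arrays of 1439163_at and 1419874_x_at were below 50, so these probe sets entered the test only through their DEX groups. No conclusion on timing is drawn from it.

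The vehicle level of Zbtb16 did not pass the test between 6 and 24 hrs for any probe set. The vehicle arrays are part of the values that chose the gene, and for 1439163_at and 1419874_x_at all 6 of them were below 50, so both probe sets entered the test through their DEX groups and no order of their vehicle levels is read. For 1439163_at the 24 hr level minus the 6 hr level was 0.30 on the log2 scale (SE 0.29, adjusted p = 0.457), and for 1427638_at it was 0.40 (SE 0.25, adjusted p = 0.268). For 1419874_x_at it was −2.19 (SE 0.63, adjusted p = 0.0856), a difference among intensities that were at most 15.4. Without the 4 arrays of hybridization day 3 that difference was −3.38 (adjusted p = 0.00875) and without replicate 4 of the DEX 6 hr group its adjusted p was 0.0238, whereas a random block for the hybridization day gave an adjusted p of 0.376 and with a pseudocount of 16 the difference was −0.44 (adjusted p = 0.462). Across all probe sets 2 passed this comparison (0.00957%), those of Tirap and Trmt61a, named after their values were seen, and 6367 had an unadjusted p under 0.05. The times were hybridized on different days, so time and day cannot be told apart in it.

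Within the hybridization days the size of the Zbtb16 response varied. For 1439163_at the DEX minus vehicle difference on the log2 scale was 2.77 on day 1 (1 pair, 24 hrs), 3.05 on day 2 (2 pairs, 24 hrs), 3.38 on day 3 (2 pairs, 6 hrs) and 4.07 on day 4 (1 pair, 6 hrs). For 1419874_x_at the same days gave 6.48, 6.52, 3.86 and 4.25. Each day thus held a higher DEX than vehicle level for both probe sets.

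The distance between the 2 responding probe sets was not the same on all DEX arrays. On the log2 scale 1419874_x_at lay 2.46 and 1.85 below 1439163_at on the DEX arrays of day 3 (differences of −2.46 and −1.85), and the differences on the other 4 DEX arrays ran from −1.12 to −0.88. The arrays with the wider gap were those with the higher 3′ minus 5′ difference of the Gapdh control, and the part of that difference in the gap was not tested. Over the 12 arrays the log2 values of 1439163_at and 1419874_x_at had a Pearson correlation of 0.923 (Spearman 0.804), and either of them with 1427638_at had one of 0.271 and 0.207, with the treatment shared by all arrays of a group. Among the 6 DEX arrays alone the correlations were 0.651 between the 2 responding probe sets, 0.416 between 1439163_at and 1427638_at, and 0.907 between 1419874_x_at and 1427638_at.

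**Figure D3:**
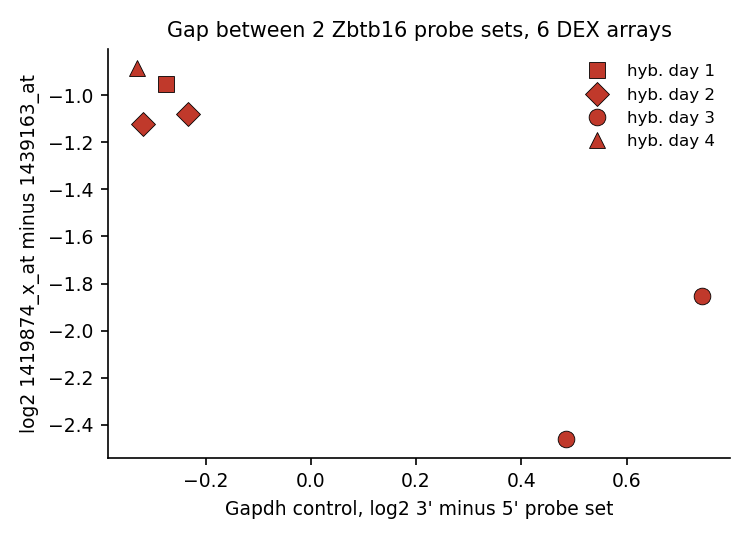
Difference of the log2 intensities of 1419874_x_at and 1439163_at against the 3′ minus 5′ difference of the Gapdh control on the 6 DEX arrays, with point shapes for the hybridization day. The 2 arrays of day 3 lie at −2.46 and −1.85, and the other 4 between −1.12 and −0.88.

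Genes whose levels followed 1439163_at most closely were listed by Pearson correlation of log2 intensity over the 12 arrays, as a description, since the arrays share treatment and hybridization day. The 10 nearest named genes were Otulinl (0.974), Fkbp5 (0.970), Klf15 (0.965), Angptl7 (0.960), Arhgef26 (0.959), Per1 (0.959), Ndrg2 (0.957), 1700025G04Rik (0.954), Mt1 (0.952) and Glul (0.950). The median over all tested probe sets was −0.02, and 41 reached 0.9. Fkbp5, a co-chaperone that binds the glucocorticoid receptor complex, went from a mean of 308 to 1740 at 6 hrs and from 426 to 1565 at 24 hrs. Klf15, a Krüppel-like transcription factor, was like Zbtb16 near background with vehicle, at 5.23 and 13.2, and at 159 and 234 with DEX. Per1, a repressor in the circadian clock, went from 97.2 to 349 and from 142 to 302. Otulinl, a relative of the deubiquitinase OTULIN, went from 48.2 to 184 and from 57.5 to 148.

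The list depended on the measure of likeness. When the 6 pair differences were correlated in place of the 12 arrays, 0 of the 10 genes were among the nearest 10, and with 1419874_x_at in place of 1439163_at 2 of them were. Without the arrays of day 3, 4 of the 10 genes were still among the nearest.

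The other genes of its family did not pass the test with DEX. Of 46 other members of the ZBTB and related BTB zinc finger genes with a named probe set, 41 were tested, and 0 rose or fell with DEX over both times with limma. None of them had an unadjusted p under 0.05, and none passed with pairs or hybridization day as a block. A test run in place of the study's own (the stand-in test) called none at an unadjusted p of 0.01. It compared DEX with vehicle over both times and does not show what the study's own test called. Over all 20897 probe sets 156 passed with limma (0.747%), and over the 11053 genes tested 103 passed (0.932%), 79 of them upward (0.715%) and 24 downward (0.217%). A count of 0 among the 41 family genes is close to that share. The log2 differences of the family ran from −0.44 (Zbtb12) to 0.22 (Hic1, a repressor first known as a gene silenced in cancer) with a median of −0.03, and the median of all genes was −0.02.

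Named family members had these values. Bcl6, a repressor of lymphocyte genes that also recruits corepressors, had means of 89.7 (vehicle) and 79.1 (DEX) at 6 hrs, then 79.5 and 73.9 at 24 hrs (log2 difference over both times −0.16, adjusted p = 1.00). Zbtb20 differed by 0.16, Zbtb7c by 0.16, Zbtb7a by 0.02 and Zbtb32 by −0.03, each with an adjusted p of 1.00.

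The proteins that Zbtb16 works with were expressed, and their mRNAs did not pass the test with DEX. Of 26 corepressor, polycomb and ligase genes 21 were tested and 0 rose or fell (background 0.932%, to which a count of 0 is close). Of the 21, 0 had an unadjusted p under 0.05 and 0 passed with either block. The stand-in test called 0 of them at an unadjusted p of 0.01. Their median log2 difference was −0.05 (from −0.28 to 0.24). Sin3a, a scaffold for histone deacetylases, had means between 218 and 296 over the 4 groups (log2 difference −0.21, adjusted p = 1.00). Hdac3, a histone deacetylase of corepressor complexes, differed by −0.02 and Cul3 by 0.08 (adjusted p = 1.00 for both). Ncor1 has no probe set with a single symbol in the annotation used here and is not analysed.

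**Figure D4:**
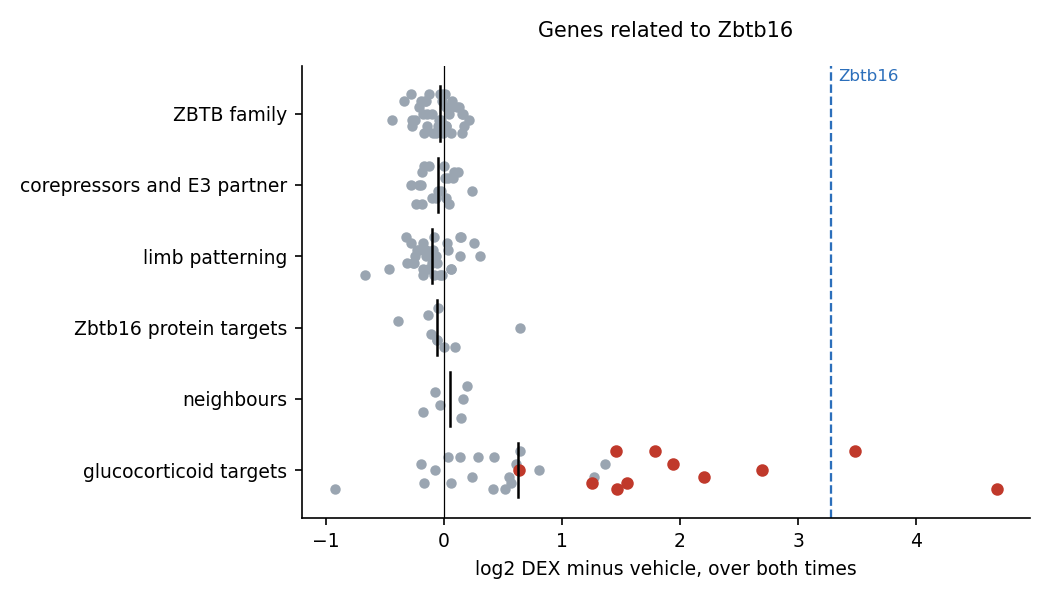
DEX minus vehicle on the log2 scale over both times for the tested genes of 6 lists, with 1 point per gene; red points passed an adjusted p of 0.05, black bars are list medians, and the dashed line marks Zbtb16 (1439163_at, 3.28, from vehicle intensities below 50). Red points are present among the glucocorticoid targets (11 of 30) and absent from the other 5 lists. Over all genes 0.932% passed, so a count of 0 in one of these 5 lists is close to that share.

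Limb patterning genes are the setting in which the luxoid mutant places Zbtb16. Of 49 such genes 33 were tested and 0 rose or fell over both times (background 0.932%, to which a count of 0 is close). With either block 0 passed, and the stand-in test called 0 at an unadjusted p of 0.01. An unadjusted p under 0.05 was found for 2, Grem1 and Tbx5, both lower with DEX. That is a share similar to the 732 of all 11053 genes. The median log2 difference was −0.10, with a range from −0.66 (Grem1, a BMP antagonist) to 0.31 (Cyp26b1, which breaks down retinoic acid). Among the Hox genes of this list, Hoxd9 had means of 198 (vehicle) and 211 (DEX) at 6 hrs, then 393 and 341 at 24 hrs (log2 difference −0.07). Hoxd10 differed by −0.08. Hoxd13 was close to the limit, with means between 49.4 and 59.5 (log2 difference −0.13). Hoxd11, Hoxd12 and Hoxa13 were below 50 in each group and were not tested. Gli3, the hedgehog pathway repressor that acts with Zbtb16 in hindlimb pattern, had means of 420 and 420 at 6 hrs and 524 and 475 at 24 hrs (log2 difference −0.08, adjusted p = 1.00). Bmp7 differed by −0.06.

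Of 12 genes described elsewhere as targets of the Zbtb16 protein 9 were tested, and 0 rose or fell (background 0.932%, to which a count of 0 is close). With either block 0 passed, and the stand-in test called 0 at an unadjusted p of 0.01 (median log2 difference −0.06). An unadjusted p under 0.05 was found for 1 of them, and for 732 of all 11053 genes. The 1 gene was Ddit4, an inhibitor of mTORC1 signalling that is also a glucocorticoid target, with means of 224 and 360 at 6 hrs and 452 and 709 at 24 hrs (log2 difference 0.65, SE 0.23, adjusted p = 0.571, higher in 6 of 6 pairs). Dusp6, a phosphatase of ERK, was lower with DEX in each of the 6 pairs (log2 difference −0.38, SE 0.26, adjusted p = 1.00). Ccna2, a cyclin of S phase, differed by −0.11, Myc by 0.09 and Id2 by −0.05. Kit was below 50 in each group.

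Part of the other known glucocorticoid targets rose with DEX. Of 33 such genes besides Zbtb16, 30 were tested, 11 rose and 0 fell over both times (background 0.715% upward), with a median log2 difference of 0.62. At 6 hrs 7 rose (background 0.271%) and at 24 hrs 5 (background 0.344%). With the pairs as blocks 13 passed at each time, where 119 of all 11053 genes passed at 6 hrs and 277 at 24 hrs. The list was drawn up from textbook targets with earlier results of these data known, so its direction is no independent evidence. Among those that rose over both times were Klf15 (4.68, adjusted p = 0.00011, with vehicle means below 50, so that its size and place rest on values near background), Tsc22d3, an anti-inflammatory leucine zipper protein (3.48, adjusted p = 0.0001), the metallothioneins Mt1 (2.70) and Mt2 (1.94), Fkbp5 (2.20) and Pdk4, which restrains pyruvate oxidation (1.79). Klf9 (1.55) and Per1 (1.47) rose too, and the others were Glul, Per2 and Cdkn1c. With the pairs as blocks 18 rose and 1, Angptl4, fell, and in a fit blocked on hybridization day 17 rose and Angptl4 fell. The background was higher in these fits too, as 397 of all 11053 genes passed with pairs and 356 with hybridization day, in either direction. Without the arrays of day 3, 7 rose, and Pdk4 (adjusted p = 0.0946) and Per2 (adjusted p = 0.0906) were among those that no longer passed. Cdkn1c passed with all arrays (adjusted p = 0.0470) and in none of the 12 fits with 1 array left out (adjusted p = 0.0560 to 0.158). Bcl6 and Ddit4 stand on this list too and did not pass. Of 12 tested genes for the receptor and its partners 1 rose, Fkbp5. Nr3c1, the glucocorticoid receptor itself, was lower with DEX in each of the 6 pairs (log2 difference −0.42, adjusted p = 0.230, and 0.0469 when blocked on hybridization day).

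The genes next to Zbtb16 on its chromosome were listed too. The order is that of RefSeq on the mouse assembly GRCm38.p6, and since the array files name no genome build, no coordinates are given. On one side lie Nnmt, Gm5617, Rbm7, Rexo2 and Nxpe2, and on the other Htr3a, Htr3b, Usp28, Zw10 and Tmprss5, among the genes with a probe set. Of these 10 genes 6 were tested and 0 rose or fell (background 0.932%, so that 0 of 6 says nothing particular about them). Of the 6, 0 had an unadjusted p under 0.05 and 0 passed with either block. The stand-in test called 0 of them at an unadjusted p of 0.01. Their log2 differences over both times were 0.14 for Gm5617, −0.04 for Rbm7, 0.16 for Rexo2, −0.17 for Htr3a, −0.07 for Usp28 and 0.20 for Zw10. Nnmt, next to Zbtb16, had means of 4.87 and 20.4 at 6 hrs and 20.1 and 20.3 at 24 hrs, and with Nxpe2, Htr3b and Tmprss5 it was below 50 in each group.

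The 22 cartilage genes reached a mean of 50 in all 4 groups, and so did the 13 named tendon and perichondrial fibroblast genes. Depending on the group, 7 to 10 of 15 skeletal muscle genes and 5 to 7 of 13 macrophage genes reached it too. All 22 cartilage genes on the list were tested, among them Col2a1 (3765 to 9709 over the 12 arrays) and Sox9, the master regulator of the lineage (280 to 1369), and 1 rose with DEX over both times, Chad, the matrix protein chondroadherin (log2 difference 0.97, adjusted p = 0.0170, 0.0152 to 0.0659 with 1 array left out and 0.145 without the arrays of day 3; background 0.715% upward). Of 13 hypertrophic genes 0 rose or fell by limma, and 3 had an unadjusted p under 0.05. When blocked on hybridization day 2 passed (Pth1r and Ibsp), and the stand-in test called 0 at an unadjusted p of 0.01. Over all 11053 genes 732 had an unadjusted p under 0.05 and 356 passed when blocked on hybridization day. At 24 hrs alone 0 of the 13 hypertrophic genes passed by limma, 4 when blocked on hybridization day and 3 with pairs as blocks. Over all 11053 genes 274 and 277 passed these blocked fits at 24 hrs. At 6 hrs 0 of the 13 passed in any of these fits. The median log2 difference of the 13 was 0.09 at 6 hrs and 0.45 at 24 hrs. Col10a1, the collagen of hypertrophic cells, differed by 0.26. Runx2 has no probe set with a single symbol in the annotation used here.

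Markers of the other cells known for Zbtb16 were low. Of 17 natural killer T and innate lymphoid markers 14 were below 50 in each group, including Cd3e (3.80 to 10.4), Ptprc (12.9 to 47.1) and Gata3 (1.15 to 10.7), and the 3 tested, Zap70, Thy1 and Icos, did not pass. Their summed intensity at 6 hrs was 426 to 562 with vehicle and 391 to 611 with DEX. At 24 hrs it was 504 to 721 with vehicle and 393 to 471 with DEX, so the ranges overlapped at the earlier time and the DEX range lay below the vehicle range at the later one. Of 6 germ line stem cell markers 5 were below 50, and their sum was 120 to 145 with vehicle and 120 to 124 with DEX at 24 hrs. Of 9 adipocyte markers 7 were tested and 1 rose, the fatty acid carrier Fabp4 (log2 difference 2.17, adjusted p = 0.0396, 0.0324 to 0.128 with 1 array left out and 0.107 without the arrays of day 3; background 0.715% upward). Their summed intensity overlapped at 6 hrs, with 1259 to 1940 for vehicle and 1707 to 2511 for DEX, and did not at 24 hrs, with 1152 to 1309 and 2097 to 2534. The defining fat cell gene Adipoq was at 1.32 to 10.2, and the part of such cells in the Zbtb16 values was not tested. Of 11 housekeeping genes 0 rose or fell, with log2 differences from −0.07 to 0.10, and 0 had an unadjusted p under 0.05. No gene of the macrophage, endothelial, skeletal muscle or tendon and perichondrial lists rose or fell with limma. In that order, 2, 0, 0 and 1 genes had an unadjusted p under 0.05. When blocked on hybridization day 0, 0, 0 and 1 passed (Postn). The stand-in test called 1 (Cd68), 0, 0 and 0 at an unadjusted p of 0.01. The same 3 counts over all 11053 genes were 732, 356 and 205.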

How the data were processed

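RNA of 12 cultures was hybridized to Affymetrix MOE 430 2.0 arrays. The deposited values are GC-RMA intensities that the authors made in GeneSpring GX, on a linear scale. The deposited array description files gave the hybridization day. The genome build is not given in the sources used here. Of 45101 probe sets 34958 had 1 symbol, 932 several and 9211 none, and genes were named from single symbols. Intensities were taken to log2 without a pseudocount. The 20897 probe sets that reached a group mean of 50 were fitted with limma 3.58.1 in R 4.3.3 (4 group means, 12 arrays), with Benjamini-Hochberg adjustment over all of them and a threshold of 0.05. A gene stands for its tested probe set with the highest mean. The DEX against vehicle values of Zbtb16 were not tested. On data simulated with the spread of these arrays, the comparison of the DEX effects at 24 and 6 hrs found 48% of log2 changes of 2 and 6% of changes of 1. The simulated noise was independent between arrays, without the deviations that pairs and hybridization days share here, so these rates may not hold for the real arrays.

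DEX and vehicle arrays of the same number and time deviated from their group means together (correlations of 0.681, 0.632 and 0.863 at 6 hrs, and 0.158, 0.301 and 0.220 at 24 hrs), so the numbers were taken to pair them. They also shared the hybridization day. The number of arrays limits the precision. Without a block, p-values measure the spread between the 3 arrays of a group, which holds differences of both cell isolation and hybridization day. That fit leaves the pairing out, and with the pairs as blocks the spread is that of the pair differences. The members and gene lists were chosen with earlier results of these data known. Named are the Zbtb16 probe sets, the 10 genes most like it, its neighbours, up to 6 genes per list that passed, and a list of genes given whatever their values.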

Additional observations from a re-analysis of the deposited data

How the results depend on the processing

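The DEX minus vehicle difference of 1439163_at (log2 scale) was 3.61 at the earlier time and 2.95 at the later, and kept its sign in each alternative run. This contrast chose the gene and its groups did not overlap, so the kept sign is no further evidence. A pseudocount of 16 gave 2.50 at 24 hrs. Other probe sets gave 6.51 (1419874_x_at) and 0.066 (1427638_at) at 24 hrs, and 0.15 (1427638_at) at 6 hrs. Leaving out 1 array at a time gave 3.31 to 3.91 at 6 hrs, 2.80 to 3.10 at 24 hrs, −0.96 to −0.35 for the effect at 24 hrs minus that at 6 hrs, and 0.16 to 0.46 for vehicle over time. Quantile normalization turned the vehicle difference of 1439163_at over time from 0.30 to −0.019 (adjusted p = 0.968); the cause was not tested. For 1427638_at the values went through 0 when 1 array was left out (−0.11 to 0.32 at 6 hrs, −0.050 to 0.22 at 24 hrs, −0.26 to 0.18 between the effects).

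With the replicate block (pairs) the difference of the effects of 1439163_at had an adjusted p of 0.429, and when blocked on hybridization day 0.476. Pairing raised the probe sets changed over both times from 156 to 668, and hybridization day as a block to 600. That number was 73 without a filter on low values, and 90 (without DEX 24 hrs replicate 4) to 157 with 1 array left out (96 without vehicle 24 hrs replicate 1). The Welch test run in place of the study's own gave 330 at an unadjusted p of 0.01 and 38 after Benjamini-Hochberg. List genes changed numbered 13, against 25 with pairs, 24 with hybridization day as a block, 8 without a filter, 7 without hybridization day 3 (chosen after seeing the data) and 10 to 13 with 1 array left out. Of the 10 genes most like Zbtb16, the numbers shared were 0 by pair differences, 2 by 1419874_x_at, 0 by 1427638_at and 4 without hybridization day 3. Of 18 single genes, 6 lost the threshold under at least 1 alternative (Per2, Pdk4, Cdkn1c, Chad, Fabp4 and 1700025G04Rik) and none changed sign. Neither block could be fitted for vehicle over time, where hybridization day entered as a random block.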

Other observations

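A probe set with no gene in the annotation used here, 1442025_a_at, was named after its values were seen. It had the largest DEX minus vehicle difference of the 20897 probe sets at 6 hrs and the sixth at 24 hrs, 5.22 and 3.94 on the log2 scale. At 6 hrs its mean intensity was 4.29 ± 2.63 (vehicle) and 159 ± 107 (DEX), and the later means were 11.9 ± 3.93 and 175 ± 9.60 (SD, n = 3). Vehicle values were thus below 50, so these differences rest on values near background. Its correlation with the Zbtb16 probe set 1439163_at over the 12 arrays was 0.958.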
